A study of Mus musculus with 6 samples.

Results

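The dystrophin complex was followed through 9 of the 31613 genes counted in mouse dental papilla cells (mDPCs), namely *Dtna*, *Dtnb*, *Dmd*, *Utrn*, *Sntb1*, *Sntb2*, *Dag1*, *Sgcb* and *Sgce*. They were taken by gene name. The set was chosen by the values of *Dtna*, whose counts lay evenly lower in all 3 libraries of *Dmp1*-Cre*;Setd2*fl/fl mice, so the difference of *Dtna* between the genotypes is described here and carries no test. All 9 genes passed the filter on low counts. mDPCs are mesenchymal cells of the tooth germ, and odontoblasts, the cells that lay down dentin, arise from them. Cells came from controls and from *Dmp1*-Cre*;Setd2*fl/fl conditional knockout (cKO) mice at postnatal day 6, and RNA-seq was run on 3 libraries of each genotype, every library being RNA pooled from 3 biological replicates. The mice were on the C57BL/6J background, and the methods state that mice compared were of the same sex. By the methods the controls were *Setd2*fl/fl mice, so that both genotypes would carry the floxed alleles and differ in the Cre transgene, whereas the labels call the controls wild type. In cKO mice Cre is driven by *Dmp1* sequences, which are active in odontoblasts, and *Setd2*, the gene of the enzyme that trimethylates H3K36, is deleted where Cre acts. The mDPC fraction also holds cells in which Cre does not act.

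The dystrophin complex links the actin cytoskeleton to the extracellular matrix. Dystrophin, or its paralog utrophin, binds actin on the inside of the membrane and dystroglycan in the membrane, and dystroglycan, once its sugar chains are built, binds laminin and related matrix proteins outside the cell. Sarcoglycans stabilize dystroglycan within the membrane. Dystrobrevins and syntrophins are cytoplasmic scaffolds that bind dystrophin and each other and hold signaling proteins at the membrane. The complex is best known from skeletal muscle and nerve, and utrophin, dystroglycan, beta-dystrobrevin and epsilon-sarcoglycan are also made in many tissues outside muscle.

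Promoter sequence was taken from RefSeq, build GRCm38.p6, as the 250 bases before the annotated start nearest to that of the deposited gene. Windows were found for 5 of the 9 genes, and those of *Dtnb*, *Dmd* and *Dag1* are shown, because they end at or within 10 bases of the start in the deposited table and because these 3 genes had their highest level in replicate 3 of both genotypes. Capitals mark the GC box GGGCGG on either strand, which reads CCGCCC on the other strand. The windows are chr12:3572141-3572390 on the plus strand for *Dtnb*, chrX:82948620-82948869 on the plus strand for *Dmd*, and chr9:108263959-108264208 on the minus strand for *Dag1*, each written 5′ to 3′ along the gene.
Dtnb: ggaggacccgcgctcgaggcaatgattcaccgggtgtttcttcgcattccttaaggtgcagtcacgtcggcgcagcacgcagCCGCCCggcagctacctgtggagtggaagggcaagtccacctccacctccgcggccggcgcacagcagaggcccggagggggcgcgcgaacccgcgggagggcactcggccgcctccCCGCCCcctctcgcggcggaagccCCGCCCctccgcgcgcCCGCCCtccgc
Dmd: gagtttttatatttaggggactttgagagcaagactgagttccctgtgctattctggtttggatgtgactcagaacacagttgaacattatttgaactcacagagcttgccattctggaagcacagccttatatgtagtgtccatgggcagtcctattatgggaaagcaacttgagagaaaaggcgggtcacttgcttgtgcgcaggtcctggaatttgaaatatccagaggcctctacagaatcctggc
Dag1: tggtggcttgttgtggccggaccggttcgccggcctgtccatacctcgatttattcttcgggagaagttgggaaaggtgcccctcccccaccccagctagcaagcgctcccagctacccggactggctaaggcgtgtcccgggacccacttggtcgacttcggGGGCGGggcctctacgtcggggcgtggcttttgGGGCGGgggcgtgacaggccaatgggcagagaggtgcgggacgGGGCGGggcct
The GC box was matched 4 times in the *Dtnb* window, 3 times in the *Dag1* window and 0 times in the *Dmd* window. Of 32851 promoter windows of this length, 32.7% hold it at least once. G and C made up 74.0% of the *Dtnb* window, 67.6% of the *Dag1* window and 45.2% of the *Dmd* window, against a median of 52.4% over all windows. The *Dmd* window held the letters TATAAA once on one of the strands, which 12.4% of all windows do, and the *Dag1* window held CCAAT once, which 33.8% do. These matches describe letters and show no binding. The windows of these 3 genes differed widely in base makeup. The 3 are among 5 members with replicate 3 highest in both genotypes, and a link of the letters to that pattern was not tested. *Sgcb*, another of the 5, had a window with 58.4% G and C, which is not shown. Annotated starts numbered 4 for *Dtnb*, 2 for *Dmd* and 2 for *Dag1*, with 1 window shown for each. Counts over a whole gene do not tell which start was used.

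Counts summed to between 18557647 and 19210750 per library, and levels are given as CPM, the counts scaled to library size by TMM. *Setd2* counts did not separate the genotypes (log2 fold change 0.05, s.e. 0.09, adjusted p = 0.900 by edgeR), and a count over the whole gene and over all cells cannot show how much of it was deleted. Replicate 3 stood apart in both genotypes. The summed CPM of 8 dental epithelium markers was 30258 in control replicate 3 and 50004 in cKO replicate 3, against 2219 to 7288 in the other 4 libraries. Markers of papilla mesenchyme were present throughout, with a summed CPM of 1075 to 1174 in controls and 1094 to 1317 in cKO libraries. Markers of skeletal muscle, where the complex is most studied, summed to between 5.30 and 7.17 CPM in all 6 libraries, with *Myod1* and *Ckm* at 0 in 5 of 6 libraries each. Calls of lower or higher follow the thresholds of the study (p under 0.05 before adjustment, log2 fold change of 0.58 or more either way), and calls on a p adjusted over all 16519 genes tested are given apart.

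**Figure D1:**
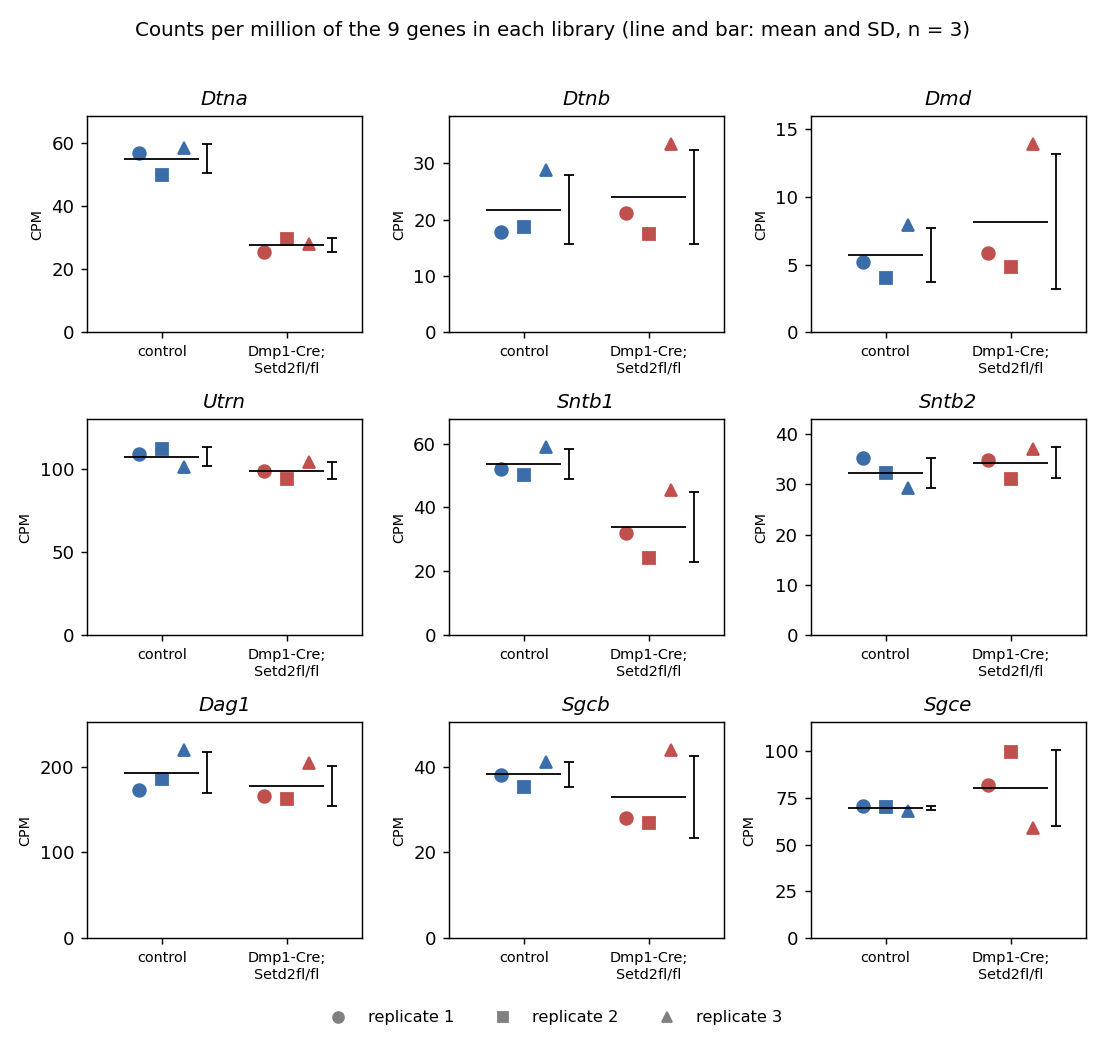
CPM of the 9 genes (vertical axes from 0, in CPM) in 3 control and 3 cKO libraries, with circles, squares and triangles for replicates 1, 2 and 3, and a line and bar for the mean and s.d. The 3 cKO values of *Dtna* lay between 25.4 and 29.7 CPM, below all controls, whereas in *Dmd* and *Dtnb* the triangle was the highest point of each genotype.

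*Dtna* was the member with the largest difference, and *Dtnb* showed none that passed the test. *Dtna* (ENSMUSG00000024302, chromosome 18, 23415135 to 23659715) encodes alpha-dystrobrevin, a cytoplasmic scaffold that binds dystrophin and syntrophins. It was at 56.9, 49.9 and 58.5 CPM in control replicates 1, 2 and 3 and at 25.4, 29.7 and 28.0 CPM in cKO replicates 1, 2 and 3. Its raw counts were 948 to 1073 per control library and 516 to 561 per cKO library. The genotypes did not overlap, and the mean of 27.7 ± 2.16 CPM (s.d., n = 3) in cKO mDPCs was 50.3% of the control mean of 55.1 ± 4.58 CPM (s.d., n = 3), a log2 fold change of -0.99 with a standard error (s.e.) of 0.12. Spread within the genotypes was small, with a coefficient of variation of 8.32% in control and 7.80% in cKO libraries. An antisense gene, Gm47898, overlaps *Dtna* and had 21 counts over all libraries, against 4662 for *Dtna*.

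*Dtnb* (ENSMUSG00000071454, chromosome 12, 3572381 to 3781796) encodes beta-dystrobrevin, the paralog of alpha-dystrobrevin, known from brain, kidney and other tissues. Its level was 17.9, 18.7 and 28.8 CPM in control and 21.2, 17.4 and 33.4 CPM in cKO replicates 1, 2 and 3. Replicate 3 was the highest library of each genotype and the genotypes overlapped, with a log2 fold change of 0.14 (s.e. 0.29, adjusted p = 0.916 by edgeR). Without cKO replicate 3 the value was -0.17. The antisense gene Dtnbos, counted without strand, held 77 counts against 2588 for *Dtnb*. Dystrobrevin counts as a whole were 76.9 ± 9.51 CPM in control and 51.7 ± 8.38 CPM in cKO libraries (s.d., n = 3 each).

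Neither of the actin-binding paralogs was called by edgeR. *Utrn* (ENSMUSG00000019820, chromosome 10, 12382188 to 12869365), which encodes utrophin, was at 109, 112 and 101 CPM in control and 98.9, 94.3 and 104 CPM in cKO replicates 1, 2 and 3. The ranges overlapped through replicate 3 of both genotypes, and the log2 fold change was -0.12 (s.e. 0.10, adjusted p = 0.761 by edgeR). *Utrn* was also the steadiest member among cKO libraries, with a coefficient of variation of 5.25% in control and 4.96% in cKO libraries. *Dmd* (ENSMUSG00000045103, chromosome X, 82948870 to 85206141), the dystrophin gene, was at 5.20, 4.05 and 7.94 CPM in control and 5.84, 4.82 and 13.9 CPM in cKO replicates 1, 2 and 3. Its highest value in each genotype was replicate 3, the other 4 libraries lay close together, and the coefficient of variation reached 60.8% in cKO libraries. The log2 fold change of *Dmd* was 0.51 (s.e. 0.46, adjusted p = 0.775 by edgeR), and it was -0.10 without cKO replicate 3. Within each replicate number *Dmd* was higher in the cKO library, and with the replicate number as a block it was 0.43 (s.e. 0.20, unadjusted p = 0.0573, adjusted p = 0.306, both by edgeR). The summed CPM of the dental epithelium markers was highest in the same 2 libraries. Among these markers *Epcam* was the exception, at 11.1 CPM in control replicate 1 against 10.7 in control and 10.9 in cKO replicate 3. The part of epithelium in the *Dmd* level was not tested.

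Of the beta-syntrophins, *Sntb1* was lower at the thresholds of the study and *Sntb2* was not. *Sntb1* (ENSMUSG00000060429, chromosome 15, 55636388 to 55906949) encodes beta-1-syntrophin, an adaptor whose PDZ domain binds channels, receptors and kinases. It was at 51.9, 50.1 and 58.8 CPM in control and 32.0, 24.1 and 45.6 CPM in cKO replicates 1, 2 and 3. All cKO values lay below all controls, but unlike *Dtna* they were uneven, with replicate 3 the nearest to the controls. The means were 53.6 ± 4.62 CPM and 33.9 ± 10.9 CPM (s.d., n = 3 each), and the log2 fold change was -0.66 with a s.e. of 0.23 (unadjusted p = 0.0223, adjusted p = 0.626, both by edgeR). Blocking on replicate number gave -0.70 (adjusted p = 0.0514 by edgeR). The call was lost without control replicate 3 (-0.59, unadjusted p = 0.0589 by edgeR), without cKO replicate 1 (-0.62, unadjusted p = 0.0692 by edgeR) and, on its size, without cKO replicate 2 (-0.47), whereas without cKO replicate 3 it was -0.93 (adjusted p = 0.0206 by edgeR). *Sntb2* (ENSMUSG00000041308, chromosome 8, 106935750 to 107019714), the gene of beta-2-syntrophin, was at 35.3, 32.2 and 29.2 CPM in control and 34.7, 31.0 and 37.1 CPM in cKO replicates 1, 2 and 3. Its ranges overlapped, with a log2 fold change of 0.09 (s.e. 0.12, adjusted p = 0.87 by edgeR).

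The membrane subunits gave no call. *Dag1* (ENSMUSG00000039952, chromosome 9, 108204634 to 108263958) encodes the precursor of alpha- and beta-dystroglycan and was at 173, 186 and 219 CPM in control and 165, 162 and 204 CPM in cKO replicates 1, 2 and 3. The genotypes overlapped, replicate 3 was the highest in each, and the log2 fold change was -0.12 (s.e. 0.14, adjusted p = 0.834 by edgeR). *Sgcb* (ENSMUSG00000029156, chromosome 5, 73632749 to 73647790), which encodes beta-sarcoglycan, was at 38.0, 35.3 and 41.2 CPM in control and 27.9, 26.8 and 43.8 CPM in cKO replicates 1, 2 and 3. Replicates 1 and 2 of cKO mDPCs lay below every control and replicate 3 above every control, with a log2 fold change of -0.22 (s.e. 0.20, adjusted p = 0.792 by edgeR). With replicate 3 left out of both genotypes, chosen after the data were seen, it was -0.41 (adjusted p = 0.0767 by edgeR). *Sgce* (ENSMUSG00000004631, chromosome 6, 4674350 to 4747207) encodes epsilon-sarcoglycan and is an imprinted gene. It was at 70.7, 70.0 and 68.3 CPM in control and 81.8, 99.7 and 59.0 CPM in cKO replicates 1, 2 and 3. The order was the reverse of that of *Sgcb*, with replicates 1 and 2 of cKO mDPCs above every control and replicate 3 below every control. The log2 fold change of *Sgce* was 0.20 (s.e. 0.19, adjusted p = 0.784 by edgeR), from 0.017 without cKO replicate 2 to 0.38 without cKO replicate 3, and the coefficient of variation was 1.77% in control and 25.5% in cKO libraries.

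Over the 8 members other than *Dtna*, edgeR called 1 lower (*Sntb1*), 0 higher and 7 neither, where 2.71% of all genes tested were called lower and 1.10% higher. Their median log2 fold change was -0.01, against 0.02 over all genes tested. After adjustment over all genes, edgeR left 0 of the 8 under 0.05, as it did of all 16519 genes tested (0%), with 1 of the 8 and 7.58% of all genes at an unadjusted p under 0.05. DESeq2 likewise gave 0 of the 8 after adjustment and limma voom gave 1, *Sntb1* (adjusted p = 0.0078 by voom), where voom called 7.94% of all genes. Of the 8, groups without overlap were found for 1, *Sntb1*, with cKO lower. Of all genes tested, 7.98% were of that kind, with a further 7.26% without overlap in the other direction. *Dtna* is left out of this count because it was picked for lying lower in every cKO library. *Sntb1* was also the 1 member of the 8 called with the replicate block (4.37% of all genes lower, 2.05% higher) and by DESeq2 (2.80% lower, 1.40% higher, over the same genes) at the thresholds of the study.

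Among the cKO libraries, replicate 3 was the highest for 7 of the 9 members and for 42.1% of all genes tested. It was highest in both genotypes for 5 members, *Dtnb*, *Dmd*, *Sntb1*, *Dag1* and *Sgcb*, and for 29.7% of all genes tested. *Dtna* was not among them. The summed CPM of endothelial markers was also highest in replicate 3, at 571 in control and 923 in cKO mDPCs against 329 to 372 in the other controls and 353 to 369 in the other cKO libraries, and the part of these cells in the levels was not tested.

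*Dtna* was lower by a like amount in each cKO library, whereas most odontoblast markers lay lower in cKO replicates 1 and 2 than in replicate 3. Relative to the control mean, *Dtna* stood at log2 values of -1.11, -0.89 and -0.98 in cKO replicates 1, 2 and 3, and *Sntb1* at -0.74, -1.15 and -0.23. The median of 12 odontoblast markers was -1.65, -2.30 and -0.51 in the same libraries. *Dspp*, the gene of the main non-collagenous dentin protein, stood at 436, 215 and 5299 CPM there, against a control mean of 14146 CPM. Of these markers, 7 of 12 were lower at the thresholds of the study and 0 higher, against 2.71% and 1.10% of all genes tested. After adjustment edgeR left 0 of the 12 under 0.05. *Sp7* and *Dlx3* did not have this order, with -0.27, -0.65 and -0.46 for *Sp7* and 0.07, 0.15 and -0.10 for *Dlx3* in cKO replicates 1, 2 and 3. Among the members, replicate 2 was the lowest cKO library and replicate 3 the highest for 7 of 9, all but *Dtna* and *Sgce*. Of all genes tested, 36.4% had replicate 2 the lowest and 42.1% had replicate 3 the highest. The share with both was not counted. In bulk RNA, fewer cells of a type and less RNA per cell cannot be told apart, and the part of odontoblast number in the level of any member was not tested. Evenness over the 3 libraries was what *Dtna* was picked for.

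**Figure D2:**
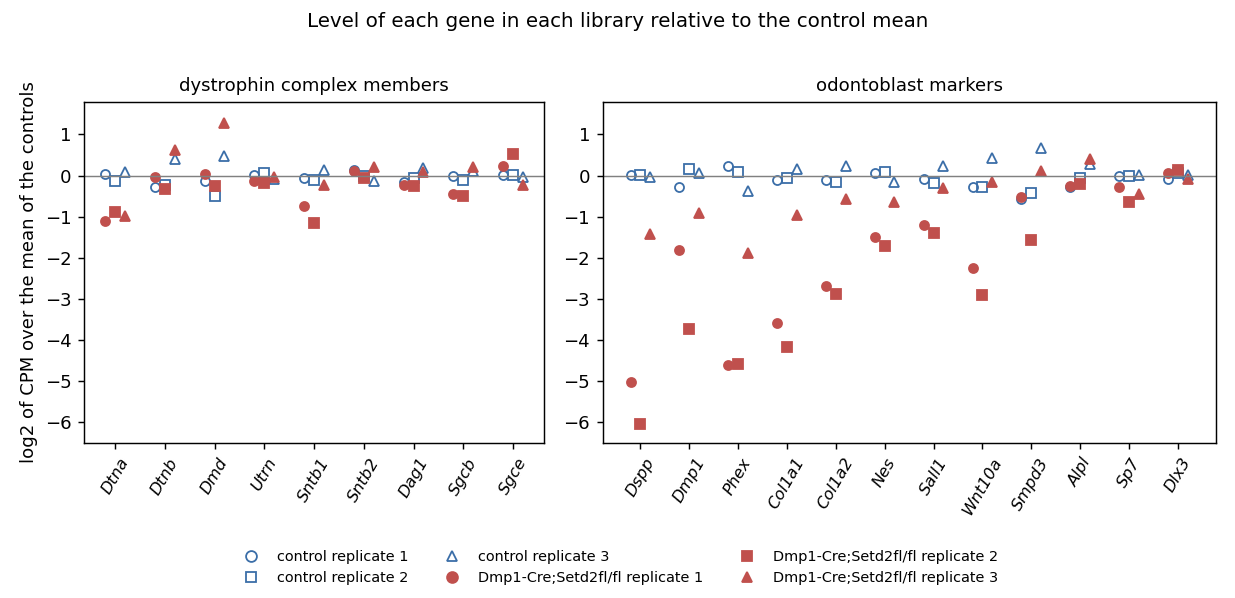
Log2 of CPM over the control mean for the 9 genes and for 12 odontoblast markers, with open symbols for control and filled symbols for cKO libraries. *Dtna* lay near -1 in all 3 cKO libraries, whereas *Dspp* and other leading odontoblast markers lay lowest in replicates 1 and 2 and nearer to the controls in replicate 3.

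Ratios of paralogs within a library do not depend on how libraries are scaled. The log2 ratio of *Dtna* to *Dtnb* was 1.67, 1.41 and 1.02 in control and 0.26, 0.77 and -0.25 in cKO replicates 1, 2 and 3. All cKO ratios lay below all controls, with means of 1.37 ± 0.33 and 0.26 ± 0.51 (s.d., n = 3 each), and the difference of -1.11 (s.e. 0.35) is given without a test because it rests on *Dtna*. In counts, *Dtna* made up 71.9 ± 4.59% of dystrobrevin counts in control and 54.4 ± 8.74% in cKO libraries (s.d., n = 3 each), and in cKO replicate 3 the share was 45.6%, so that *Dtnb* counts were the more numerous there.

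The log2 ratio of *Sntb1* to *Sntb2* was 0.56, 0.64 and 1.01 in control and -0.12, -0.36 and 0.30 in cKO replicates 1, 2 and 3. The genotypes did not overlap, and the difference was -0.79 (s.e. 0.24, exact permutation p = 0.1, two-sided, the smallest that 3 against 3 can give, adjusted p = 0.2 over 2 ratios). *Sntb1* was 62.4 ± 3.89% of beta-syntrophin counts in control and 49.0 ± 5.74% in cKO libraries (s.d., n = 3 each). For *Dmd* to *Utrn* the log2 ratio was -4.39, -4.79 and -3.67 in control and -4.08, -4.29 and -2.91 in cKO replicates 1, 2 and 3. These ranges overlapped (difference 0.53, s.e. 0.54, exact permutation p = 0.4, adjusted p = 0.4), and replicate 3 had the highest ratio of each genotype. The difference was 0.10 without cKO replicate 3 and 0.83 without control replicate 3, and within replicate numbers the cKO ratio was the higher in all 3 (s.e. 0.13). *Utrn* counts outnumbered those of *Dmd* in every library, *Dmd* making up 5.10 ± 1.95% of their sum in control and 7.40 ± 3.80% in cKO libraries (s.d., n = 3 each).

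**Figure D3:**
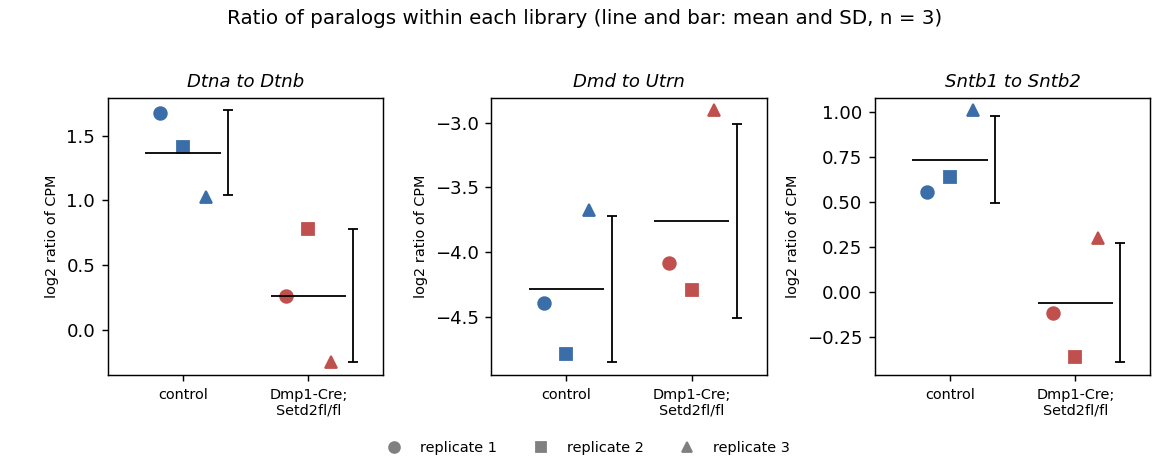
Log2 ratio of CPM of *Dtna* to *Dtnb*, *Dmd* to *Utrn* and *Sntb1* to *Sntb2* within each library, with a line and bar for the mean and s.d. of 3 libraries and symbols for replicates 1, 2 and 3. The cKO ratios lay below every control for *Dtna* to *Dtnb* and *Sntb1* to *Sntb2* and overlapped them for *Dmd* to *Utrn*.

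For levels between genes, CPM was divided by the length of the canonical transcript in GENCODE. On this per-kilobase scale *Dag1* was the highest member in control libraries, at 33.1 ± 4.09 CPM per kb, followed by *Sgce* at 17.4 ± 0.309. *Dtna* came next at 11.3 ± 0.941, then *Sntb1* at 10.9 ± 0.939, *Sgcb* at 10.1 ± 0.772, *Dtnb* at 7.98 ± 2.22 and *Utrn* at 7.94 ± 0.417 CPM per kb. The ranges of neighbours from *Dtna* to *Utrn* overlapped, although *Dtna*, *Sntb1* and *Sgcb* each lay above *Utrn* in all 3 control libraries. *Sntb2* at 3.30 ± 0.311 and *Dmd* at 0.383 ± 0.134 CPM per kb were the lowest, each apart from its neighbour (s.d., n = 3 for all). In cKO libraries *Dtna* was at 5.70 ± 0.444 CPM per kb and ranked 7 of 9. With the length of all exons in place of that of the canonical transcript, *Dag1* stayed the highest and *Dmd* the lowest, but *Sgce* ranked 5, *Sntb1* ranked 2 and *Dtna* ranked 6 in controls, so the order between depends on the length used.

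The wider pathway was read from 4 lists, together 55 genes tested of 63 listed. At the thresholds of the study 6 were lower, 0 higher and 49 neither, with a median log2 fold change of -0.07, and 2.71% of all genes tested were lower. Among other subunits of the complex, 6 of 10 were tested and 1 was lower. This was *Drp2*, the gene of dystrophin-related protein 2, which was at 74.3, 71.3 and 68.1 CPM in control and 45.4, 32.4 and 50.6 CPM in cKO replicates 1, 2 and 3. The genotypes did not overlap (log2 fold change -0.73, s.e. 0.17, adjusted p = 0.558 by edgeR). DRP2 is best known from Schwann cells, and the summed CPM of 9 Schwann cell markers overlapped between control (52.9 to 63.4) and cKO libraries (44.5 to 62.6), with 0 of 8 tested called. *Sgcd*, *Sntg2* and *Sspn* gave no call by edgeR, and *Sgca*, alpha-sarcoglycan, gave none either (log2 fold change -1.47, s.e. 0.75, unadjusted p = 0.0919 by edgeR) but was called lower by DESeq2 (-1.48) and with the replicate block (-1.66).

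Among 15 extracellular ligands, edgeR called *Bgn* lower and none of the laminin chains, agrin, perlecan, pikachurin, the neurexins and *Slit2*. The perlecan gene *Hspg2* had a log2 fold change of -0.71 (s.e. 0.40, unadjusted p = 0.124 by edgeR), and with the replicate block it was called lower (-0.82). *Bgn* encodes biglycan, a small proteoglycan of the dentin and bone matrix that binds alpha-dystroglycan. It was at 1693, 1648 and 1964 CPM in control and 776, 660 and 1194 CPM in cKO replicates 1, 2 and 3, with no overlap (log2 fold change -1.01, s.e. 0.24, adjusted p = 0.558 by edgeR). Among 18 genes of dystroglycan glycosylation edgeR called 0 lower and 0 higher. Of the 18 log2 fold changes, 15 were negative, with a median of -0.10, where 7831 of all 16519 genes tested were negative. The count of signs was not tested, and genes measured in the same libraries are not independent. *Gmppb*, which makes the mannose donor of these sugar chains, was at -0.62 (s.e. 0.29, unadjusted p = 0.0718 by edgeR) and was called lower by DESeq2 (-0.61) and with the replicate block (-0.67). The smallest p of the list was that of *Dpm1*, the catalytic subunit of dolichol-phosphate mannose synthase (log2 fold change -0.40, s.e. 0.18, unadjusted p = 0.0666 by edgeR).

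Intracellular partners held the other 4 calls, of 16 tested from 20 listed, all lower. *Synm* encodes synemin, an intermediate filament protein that binds dystrobrevin, and was at 35.4, 35.0 and 40.7 CPM in control and 11.2, 13.2 and 24.7 CPM in cKO replicates 1, 2 and 3 (log2 fold change -1.18, s.e. 0.29). *Ank3*, the gene of ankyrin-G, an adaptor between the membrane and spectrin, was at 53.7, 49.7 and 61.1 CPM and at 26.3, 20.6 and 42.3 CPM (log2 fold change -0.88, s.e. 0.26). Both were without overlap and had cKO replicate 3 nearest to the controls. *Mapk12*, a p38 kinase that binds syntrophin, had a log2 fold change of -1.03 (s.e. 0.32), with 17.2 to 17.7 CPM in control and 5.25 to 13.0 CPM in cKO libraries. *Adra1d*, an adrenergic receptor that binds syntrophin, had a log2 fold change of -2.37 (s.e. 0.70), from 3.46 to 4.11 CPM in control to 0.239 to 1.74 CPM in cKO libraries, and it was -3.89 without cKO replicate 3 and -3.74 by voom. The adjusted p by edgeR was 0.587 for *Synm* and 0.625 for *Ank3*, *Mapk12* and *Adra1d*. In all 4, as in *Bgn*, *Drp2* and *Sntb1*, replicate 3 was the cKO library with the highest level.

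Blocking on replicate number, edgeR called 4 of the 55 after adjustment, *Bgn* (adjusted p = 0.0298), *Synm* (adjusted p = 0.0318), *Ank3* (adjusted p = 0.0323) and *Drp2* (adjusted p = 0.0455), all lower, where 0.975% of all genes tested were called in either direction. Without the block edgeR called 0 of the 55. Without cKO replicate 3 it called 8 after adjustment, where 3.33% of all genes were called, and at replicates 1 and 2 of both genotypes it called 10 (6.81% of all genes). By voom 10 were called after adjustment (7.94% of all genes). DESeq2 called 4 of them, *Bgn*, *Synm*, *Drp2* and *Adra1d*, where 0.811% of the genes with an adjusted p were called. At the thresholds of the study, 9 of the pathway genes were lower with the block, 8 by DESeq2 and 10 each by voom, without cKO replicate 3 and at replicates 1 and 2, where 4.37%, 2.80%, 6.71%, 6.88% and 7.55% of all genes were lower in turn. *Sgca* and *Gmppb* were gained by both DESeq2 and the block, and *Hspg2* by the block. *Sgca*, *Hspg2* and *Gmppb* are named here with their values already seen.

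**Figure D4:**
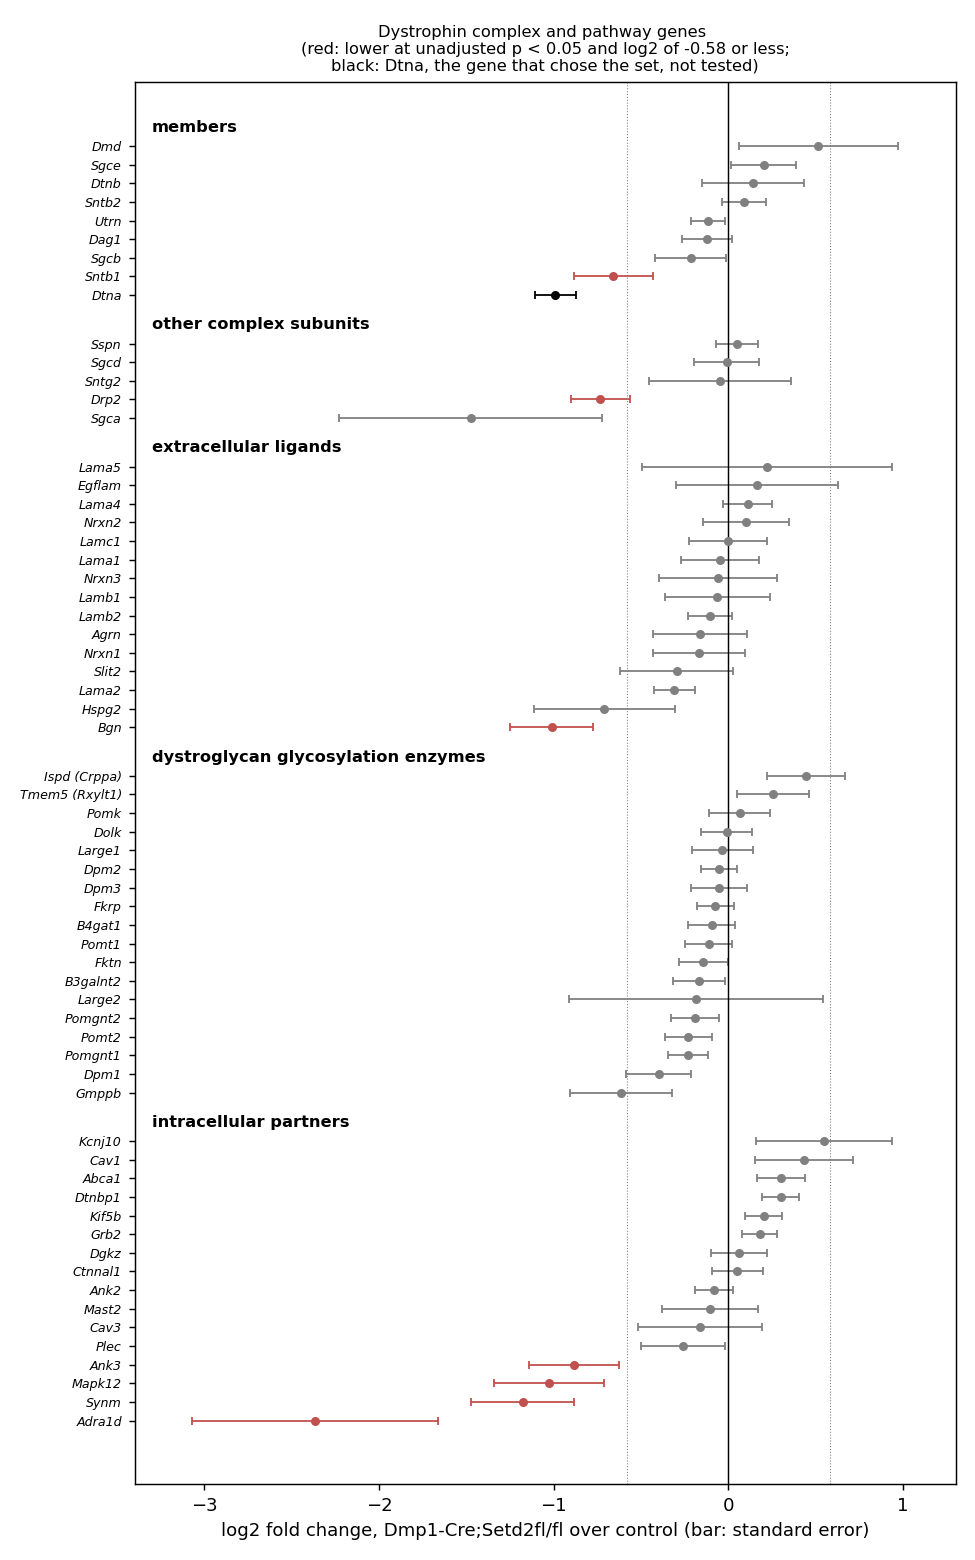
Log2 fold change of cKO over control for tested genes of the complex and of the 4 lists, with bars for the standard error and dotted lines at the threshold of 0.58 on either side. Genes called lower are red and lie left of the dotted line, *Dtna* is black and was not tested, and no gene was called higher.

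The genes whose log2 CPM over the 6 libraries was most like that of *Dtna* were sought among 12004 genes with a mean of at least 5 CPM. They were *Tpbg* (Pearson's r = 0.990, n = 6 libraries), *Ddx59* (r = 0.985), *Gxylt2* (r = 0.984), *Pfkm* (r = 0.981) and *Armh4* (r = 0.979). The points are the same 6 libraries, and each of these genes had its cKO values below its controls, so the values describe likeness over 2 groups rather than 6 separate points. Their differences were smaller than that of *Dtna*, with log2 fold changes of -0.40 for *Tpbg*, -0.56 for *Ddx59*, -0.25 for *Gxylt2*, -0.45 for *Pfkm* and -0.63 for *Armh4*. *Pfkm* encodes the muscle form of phosphofructokinase and *Ddx59* an RNA helicase. Within the complex, *Sntb1* was the member most like *Dtna* (r = 0.767) and *Sntb2* the least like it (r = -0.428). *Dtna* was picked for its difference between the genotypes, so these values too describe likeness over 2 groups. Among the cKO libraries *Dtna* was lowest in replicate 1 and *Sntb1* in replicate 2.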

How the data were processed

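RNA-seq of mDPCs comprised 3 control libraries and 3 of *Dmp1*-Cre*;Setd2*fl/fl (cKO) mice. The authors used HISAT2 for alignment and HTSeq for unstranded gene counts, and deposited raw whole-number counts in 1 table. Bowtie2, DESeq2 and GRCm39 stand in the submitters' processing notes too, but positions in the table share a start or end with 47.37% of genes in RefSeq GRCm38.p6 and 1.30% in a GRCm39 annotation, so positions are read as GRCm38. The table's columns of the authors' own comparison (normalized mean, fold change, p-values) were not used, and 0 columns of per-library values were left out.

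Counts were fitted on the whole table by the quasi-likelihood F test of edgeR 4.0.16 under R 4.3.3 (robust; TMM; filterByExpr, minimum count 10; genotype as the single term; Benjamini-Hochberg over 16519 of 31613 genes). The standard error (s.e.) is the log2 fold change in size over the root of F. Log2 CPM for correlations used a prior count of 2. Paralog ratios were compared by two-sided exact permutation tests. The fits were tested on simulated data. Members, lists and tests were chosen with earlier results of these data known. Named genes were the members, all called genes of the 4 pathway lists or else the gene with the smallest p, the 5 genes most like *Dtna*, and *Setd2* and *Dspp*; any other was named after its values were seen. Marker lists gave summed CPM and counts of calls: none of the tested markers of skeletal muscle, smooth muscle and pericytes, Schwann cells, endothelium, dental epithelium or macrophages was called, and 1 of 8 of papilla mesenchyme was lower.

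Alternatives were DESeq2 1.42.0, RLE size factors, voom (limma 3.58.1), no filter, a floor of 10 counts per library, blocking on replicate number, omission of each library, a pseudocount of 1 for ratios and, added later, both genotypes without replicate 3. Replicate numbers come from the labels. Across genes, deviations correlated between libraries of the same number at 0.453, 0.465 and 0.663. Numbers were therefore treated as pairs in the blocked alternative, but not in the main fit. Control replicate 2 and cKO replicate 1 reached 0.455, and control replicate 1 and cKO replicate 2 reached 0.38. The pairing of replicates 1 and 2 is thus not established. No 2 libraries agreed within sampling noise. Depth was 18557647 to 19210750 counts. Taken over genes, the libraries differed by more than counting error, but for single genes counting error need not be small. In cKO replicates 1, 2 and 3, *Adra1d* had 5, 5 and 32 counts and *Sgca* had 11, 2 and 31. The pools may share mice, so p-values reflect only how these libraries vary, in part perhaps technically. Other data of the study were not analysed here, and values of 1 gene of the lists are not reported here.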

Additional observations from a re-analysis of the deposited data

How the results depend on the processing

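The log2 fold change of *Dtna* stayed between -1.06 and -0.93 when any library was left out, and every other alternative run kept its direction. The count of members called lower, 1 by edgeR, was 0 to 1 with 1 library left out (0 without control replicate 3 or cKO replicate 1 or 2). The count at an adjusted p under 0.05, 0 by edgeR, was 1 by voom, 1 without replicate 3 of both genotypes and 0 to 1 with 1 library left out. In all, 3 members turned direction with no call in either fit: *Dmd* (-0.10) and *Dtnb* (-0.17) without cKO replicate 3 (their ranges with 1 library left out being -0.10 to 0.81 and -0.17 to 0.39), and *Sntb2* (-0.031) without replicate 3 of both genotypes.

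Of the other pathway genes, 0 passed an adjusted p of 0.05 by edgeR, 4 by DESeq2, 10 by voom, 4 with the replicate block, 10 without replicate 3 of both genotypes and 0 to 8 with 1 library left out, the 8 being without cKO replicate 3. Their lower calls, 6 by edgeR, were 8 by DESeq2, 9 with the replicate block, 10 by voom, 10 without replicate 3 of both genotypes and 5 to 10 with 1 library left out, and their higher calls were 0 to 1 there. *Drp2* (-0.57, without cKO replicate 2) and *Mapk12* (unadjusted p = 0.0528 by edgeR, without cKO replicate 1) each lost the call once. Apart from the counts above and the *Sntb1* values given with it, the replicate block changed no call of a member. The cause of these changes was not tested. Within replicate numbers, the paralog ratios differed by the same means, with s.e.s of 0.24 for *Dtna* to *Dtnb*, 0.13 for *Dmd* to *Utrn* and 0.10 for *Sntb1* to *Sntb2*.

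With 3 libraries a genotype and 1 of them apart in each, a change in *Dmd*, *Dtnb* or *Sgcb* could exceed the s.e. given and still be missed. *Dmd* (0.51, s.e. 0.46) and *Sgcb* (-0.22, s.e. 0.20) exceeded it without a call.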

Other observations

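*Dtnbp1*, the gene of dysbindin, a binding partner of dystrobrevins, was at 45.9, 44.9 and 46.3 CPM in control and 50.8, 61.1 and 56.6 CPM in cKO replicates 1, 2 and 3. It did not reach the fold threshold (log2 fold change 0.30, s.e. 0.10, adjusted p = 0.626 by edgeR), and its groups did not overlap, as was so for 7.26% of all genes tested with cKO higher. Of the 16 intracellular partners tested, 3 were of that kind, *Dtnbp1*, *Kif5b* and *Grb2*. Another 4 were without overlap with cKO lower, as were 7.98% of all genes tested. *Lama2*, the laminin chain most tied to dystroglycan in muscle, was at 105, 107 and 126 CPM in control and 97.1, 85.4 and 90.0 CPM in cKO replicates 1, 2 and 3, also without overlap and under the fold threshold (log2 fold change -0.31, s.e. 0.12, adjusted p = 0.636 by edgeR). *Sgca* was low throughout, at 1.59, 1.89 and 2.95 CPM in control and 0.526, 0.106 and 1.68 CPM in cKO libraries, and its groups overlapped. The summed CPM of smooth muscle and pericyte markers was 562 to 596 in control and 646 to 718 in cKO libraries, with 0 of 6 tested markers called. Of the 6 log2 fold changes, 5 were positive and 1 negative. Only *Rgs5* (means of 241 CPM in control and 304 CPM in cKO libraries) and *Kcnj8* (150 and 185 CPM) were without overlap. *Cspg4* was the negative one (67.0 and 46.8 CPM). All were picked with their values in view.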
